A study of Mus musculus with 8 samples.

Results

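Forkhead factors are transcription factors that bind DNA through a winged-helix fold, the forkhead domain. The 10 genes described here, Foxa1, Foxa2, Foxc1, Foxc2, Foxd1, Foxf1, Foxf2, Foxm1, Foxp1 and Foxq1, are forkhead genes other than Foxj1, the regulator of motile cilia, and were chosen by gene symbol among the 24346 genes of the series. All 10 were listed in every library. Foxd1 was at 0 throughout, and 9 genes had a value above 0 in at least 1 library and were tested, out of 18862 genes tested in all. A further 34 listed forkhead genes served for comparison.

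The RNA came from primary cultures of adipose-derived stem cells (ADSCs) of wild-type BALB/c mice. According to the methods of the study the cells were taken from the gonadal fat of 12-week-old males, and the 3D cells were grown embedded in Matrigel, a basement membrane gel. The 2D group comprised 4 animals, numbered 2, 3, 4 and 5, and the 3D group 4 animals, numbered 1, 4, 5 and 7, each with a single library. Only mice 4 and 5 were sampled in both. The labels do not state the passage or medium of any library. The description of the 3D library of mouse 1 ends in 13 where those of the other 3D libraries end in 3D, and what this means is not explained there. The depth, estimated from how low values are spaced, was 16.45 to 17.3 M fragments per 2D library and 14.55 to 15.55 M per 3D library. Levels are FPKM as deposited, which are fragments per kilobase of transcript and per M of mapped fragments. Differences (3D minus 2D) are on the scale of log2(FPKM + 1) after quantile normalization and are given with their standard error (SE) and the adjusted p of limma, a linear model with a spread shared across genes, adjusted by the Benjamini-Hochberg method over 18862 genes. This scale understates the difference of low genes.

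The labels name the cells of both groups mesenchymal stem cells, and the markers of the 2 groups differed. The summed level of 10 stromal markers was 2343 to 6116 FPKM in 2D and 0.102 to 1.30 in 3D. With Pdgfrb and Dcn at 0 in all 4 of the 3D libraries, defining stromal markers were absent or nearly absent there. Lum was also at 0 in 3D, but it was low in 2D as well, at 0 to 0.651 FPKM, and did not pass. The sum of 12 epithelial markers was 32.8 to 783 FPKM in 2D and 2149 to 2589 in 3D, and Esrp1 and Crb3 were at 0 in all 4 of the 2D libraries. For 5 mesothelial markers the sum reached 853 FPKM in mouse 3 and 2218 in mouse 4 of 2D, against 0.333 to 1.41 in the other 2D libraries and 2.26 to 30.4 in 3D. The sum of 5 endothelial markers was 0.676 to 6.46 FPKM in 2D and 0.0617 to 0.204 in 3D, but 0 of the 5 passed with all libraries. Most of the sum in mice 3 and 4 of 2D was Kdr, at 3.66 and 5.97 FPKM. Pecam1 overlapped between the cultures. Adipocyte markers summed to 6.19 to 43.2 FPKM in 2D and 0.0479 to 0.102 in 3D, with Adipoq and Lep at 0 in all 8 libraries. Macrophage markers summed to 1.32 to 21.4 FPKM in 2D and 7.09 to 38.6 in 3D. Of the 5 macrophage markers, Cd68 passed and was higher in 3D (difference 2.19, SE 0.54). Csf1r (1.22, SE 0.57), Ptprc (0.01, SE 0.03), Adgre1 (-0.15, SE 0.12) and Lyz2 (-2.10, SE 0.86) did not pass with all libraries. Without the 3D library of mouse 1, Csf1r passed as higher (1.83, limma's adjusted p = 0.00272). Without the 2D library of mouse 3, Lyz2 passed as lower (-2.71, limma's adjusted p = 0.0338). Adgre1 and Lyz2 were at 0 in all 4 of the 3D libraries. Lpl, the lipase of adipocytes, made up most of the adipocyte sum in 2D, at 6.08 to 43.0 FPKM, and was lower in 3D (-3.81, SE 0.52). In bulk RNA, fewer cells of a type and less RNA per cell cannot be told apart, which holds for every difference below.

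As background, the members have separate roles in development. FOXA1 and FOXA2 are pioneer factors that open chromatin in endodermal and glandular epithelia. FOXC1 and FOXC2 act in mesoderm, vessels and connective tissue, and FOXF1 and FOXF2 in the mesenchyme around the gut and lung, downstream of Hedgehog signals. FOXD1 marks stromal progenitors of the kidney, FOXM1 drives genes of the G2 and M phases of the cell cycle, FOXP1 is mainly a repressor, and FOXQ1 is expressed in many epithelia.

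The kinship of the members is shown first, because paralogs are compared with each other below. The stretch of 20 residues of FOXA1 with the closest matches in the other members, at the start of the forkhead domain, is given with those matches. Shown are the coding bases from the GENCODE M21 annotation of GRCm38, the build also called mm10, 5′ to 3′ on the coding strand. The capitals mark the codons of the 6 residues that are the same in all 10 members. The stretch lies in 1 exon in every member but Foxp1, where it joins 2 exons across an intron.
Foxa1 (chr12:57542866-57542925, minus strand): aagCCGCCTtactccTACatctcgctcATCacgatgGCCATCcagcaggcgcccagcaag
Foxa2 (chr2:148044360-148044419, minus strand): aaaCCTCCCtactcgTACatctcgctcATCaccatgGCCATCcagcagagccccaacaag
Foxc1 (chr13:31807439-31807498, plus strand): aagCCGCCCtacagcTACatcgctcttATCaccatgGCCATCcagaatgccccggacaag
Foxc2 (chr8:121116825-121116884, plus strand): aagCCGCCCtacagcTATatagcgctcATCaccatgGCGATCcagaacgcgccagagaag
Foxf1 (chr8:121084540-121084599, plus strand): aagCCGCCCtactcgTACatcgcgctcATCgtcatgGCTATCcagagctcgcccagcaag
Foxf2 (chr13:31626377-31626436, plus strand): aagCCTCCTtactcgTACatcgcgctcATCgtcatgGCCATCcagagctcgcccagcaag
Foxd1 (chr13:98355007-98355066, plus strand): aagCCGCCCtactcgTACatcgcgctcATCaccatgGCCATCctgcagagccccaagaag
Foxq1 (chr13:31559259-31559318, plus strand): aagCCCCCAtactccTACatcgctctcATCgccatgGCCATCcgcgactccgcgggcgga
Foxm1 (chr6:128369345-128369404, plus strand): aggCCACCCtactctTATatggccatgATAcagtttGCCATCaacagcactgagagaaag
Foxp1 (chr6:98944697-98945382, minus strand): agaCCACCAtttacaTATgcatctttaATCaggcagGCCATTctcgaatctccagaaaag
Over these 60 bases, Foxf1 and Foxf2 shared 57 bases and all 20 residues. Foxc1 and Foxc2 shared 51 bases and 19 residues, and Foxa1 and Foxa2 shared 51 bases and 18 residues. Likeness was not limited to these pairs, since Foxa2 and Foxd1 shared 55 bases and 17 residues. Foxm1 and Foxp1 stood farthest from Foxa1, with 9 and 10 of the 20 residues in common, and Foxq1 had 12. Whether reads of such stretches were split between members by the authors' counting was not tested.

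Between the cultures, 2 of the 9 tested members were higher in 3D (Foxa1 and Foxq1) and 5 were lower (Foxc2, Foxf1, Foxf2, Foxm1 and Foxp1) at an adjusted p under 0.05 from limma. Of all genes tested, 21.2% were higher and 20.3% lower by the same criterion. Foxa2 and Foxc1 did not pass. The 4 libraries of one culture all lay above the 4 of the other in the same 7 members, as they did in 42.5% of all genes. The median difference of the 9 members was -1.44 on the log2 scale, beside 0.00 for all genes, and the gene at this median was Foxf1, which was above 0 in all 8 libraries.

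**Figure D1:**
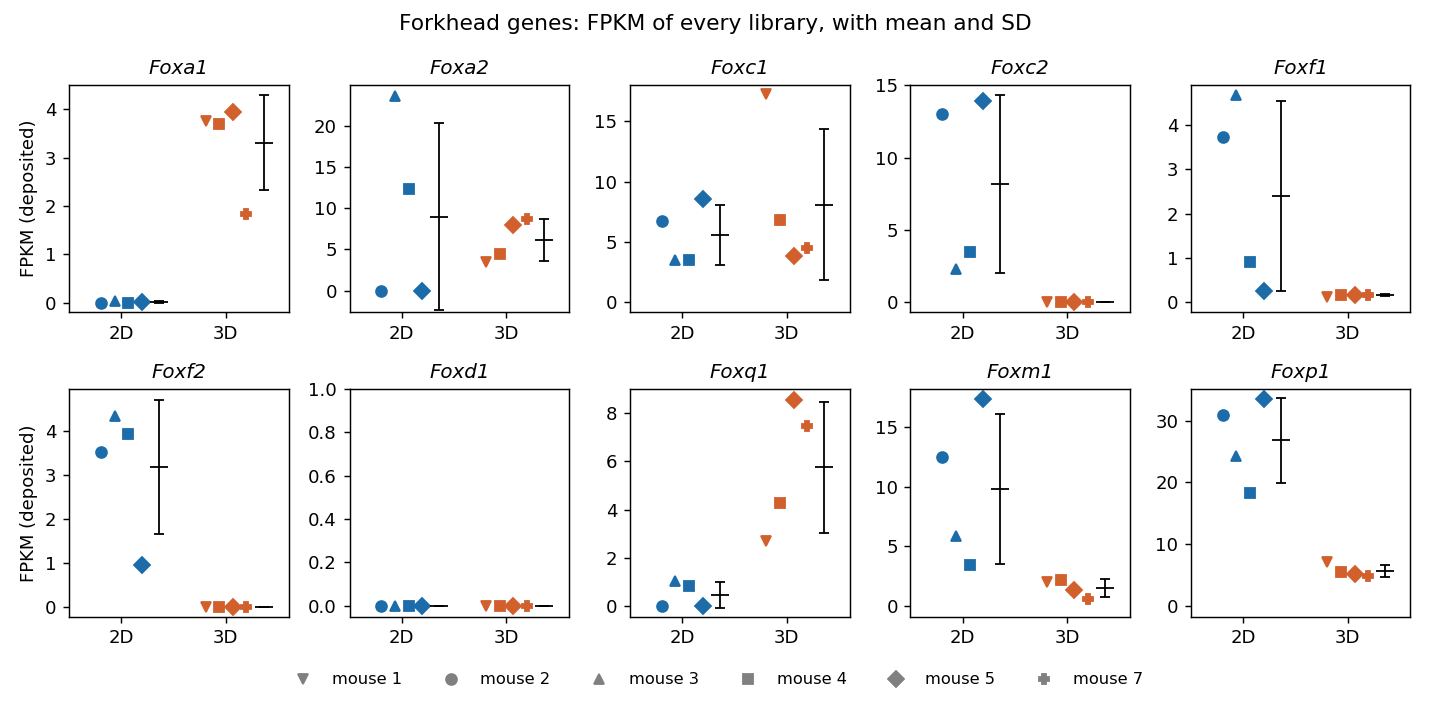
FPKM as deposited (linear axis, a scale of its own for each gene) of the 10 forkhead genes in the 4 2D and the 4 3D libraries, with a symbol for each mouse and the mean with its SD beside the points. Foxa1 and Foxq1 were above all 2D libraries in 3D, Foxc2, Foxf1, Foxf2, Foxm1 and Foxp1 below, and Foxa2 was split within 2D between 0 and 23.6 FPKM.

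Mice 4 and 5 allow a comparison within an animal. With the mouse number as a block, which leaves only these pairs to the comparison and 1 residual degree of freedom, limma's adjusted p was under 0.05 for 0 of the 9 members and for 0 of all 18862 genes, while 4 members (Foxa1, Foxc2, Foxf2 and Foxp1) and 5216 genes had an unadjusted p under 0.05. The blocked adjusted p was 0.111 for Foxa1, 0.204 for Foxq1, 0.157 for Foxc2, 0.175 for Foxf2, 0.134 for Foxp1, 0.320 for Foxm1 and 0.243 for Foxf1. Without the block but with only the 4 libraries of mice 4 and 5, Foxa1 and Foxp1 passed. In both animals, the sign of the difference was that of the whole comparison for each of the 7 members that passed there. Foxa1 differed by 2.13 in mouse 4 and 2.13 in mouse 5, and Foxp1 by -1.63 and -2.45. Foxa2 and Foxc1 went opposite ways in the 2 animals, with -1.41 and 3.09 for Foxa2 and 0.66 and -1.15 for Foxc1.

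**Figure D2:**
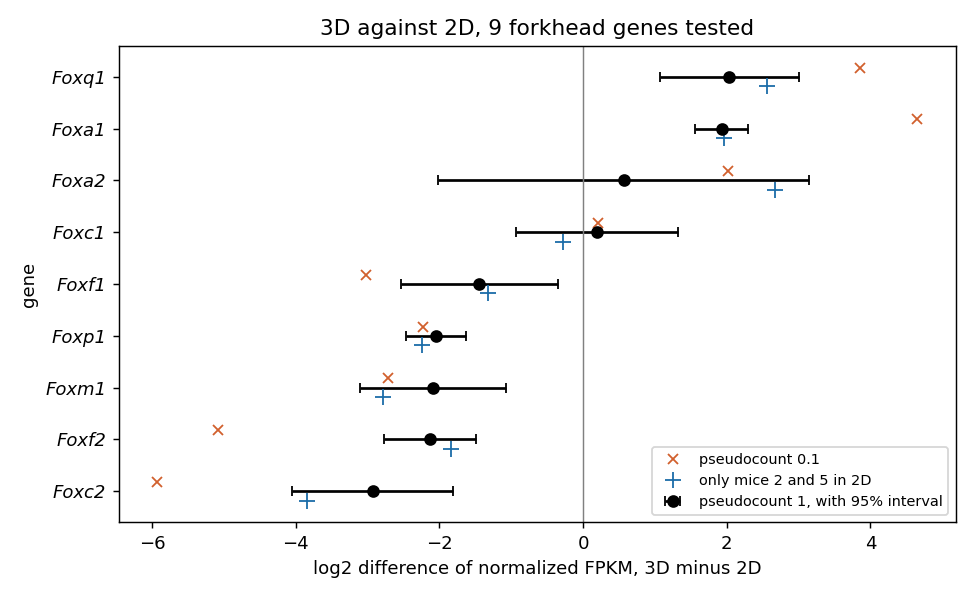
Log2 difference of normalized FPKM (3D minus 2D, x axis) for the 9 tested forkhead genes, with the 95% interval of limma (black), the value with a pseudocount of 0.1 (orange crosses) and the value with only mice 2 and 5 in 2D (blue plus signs). Foxa1 moved from 1.93 to 4.66 with the smaller pseudocount, and Foxa2 from 0.57 to 2.67 when 2D was limited to mice 2 and 5.

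Foxa1 was nearly absent from 2D and present in every 3D library. It lies on the minus strand at chr12:57540628-57546916. In 2D it was listed at 0 for mice 2 and 4, at 0.0373 FPKM for mouse 3 and at 0.0193 for mouse 5, which is about 2.04 and 1.02 fragments. In 3D it was at 3.75 FPKM in mouse 1, 3.69 in mouse 4, 3.93 in mouse 5 and 1.84 in mouse 7, or between 91.2 and 183 fragments. The lowest 3D library thus stood far above the highest 2D library, and 3 fragments of Foxa1 in a 2D library would read at most 0.0572 FPKM. The difference was 1.93 (SE 0.16, limma's adjusted p = 7.0e-05), and 4.66 with a pseudocount of 0.1.

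Foxa2, its paralog, did not follow this pattern. It lies on the minus strand at chr2:148042877-148046969. In 2D it was at 0 for mice 2 and 5, at 23.6 FPKM for mouse 3 and at 12.3 for mouse 4. The 3D libraries gave 3.45 FPKM in mouse 1, 4.44 in mouse 4, 8.001 in mouse 5 and 8.69 in mouse 7, all between the 2 pairs of 2D libraries. The difference of 0.57 (SE 1.11, limma's adjusted p = 0.704) had a 95% interval from -2.02 to 3.15. Leaving out mouse 2 of 2D turned it to -0.10, and leaving out mouse 5 of 2D to -0.11. With only mice 2 and 5 in 2D, an alternative chosen after seeing the data, it was 2.67 (limma's adjusted p = 0.00418), and over all alternatives the adjusted p ran from 0.00418 to 0.948.

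The 2D libraries with Foxa2 were those with mesothelial markers. Msln, which encodes mesothelin, was at 256 and 785 FPKM in mice 3 and 4 of 2D and at 0.241 and 0.182 in mice 2 and 5. The epithelial keratin Krt8 was at 27.8 and 296 FPKM in mice 3 and 4 of 2D and at 0 and 0.0363 in mice 2 and 5. Foxa2 was higher in mouse 3 than in mouse 4, whereas the mesothelial sum was higher in mouse 4. The part of these cells in the Foxa2 values was not tested. Of the summed FPKM of Foxa1 and Foxa2, Foxa1 made up 0.158% in mouse 3 of 2D and 0% in mouse 4, but 17.5% to 52.0% in the 3D libraries.

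**Figure D3:**
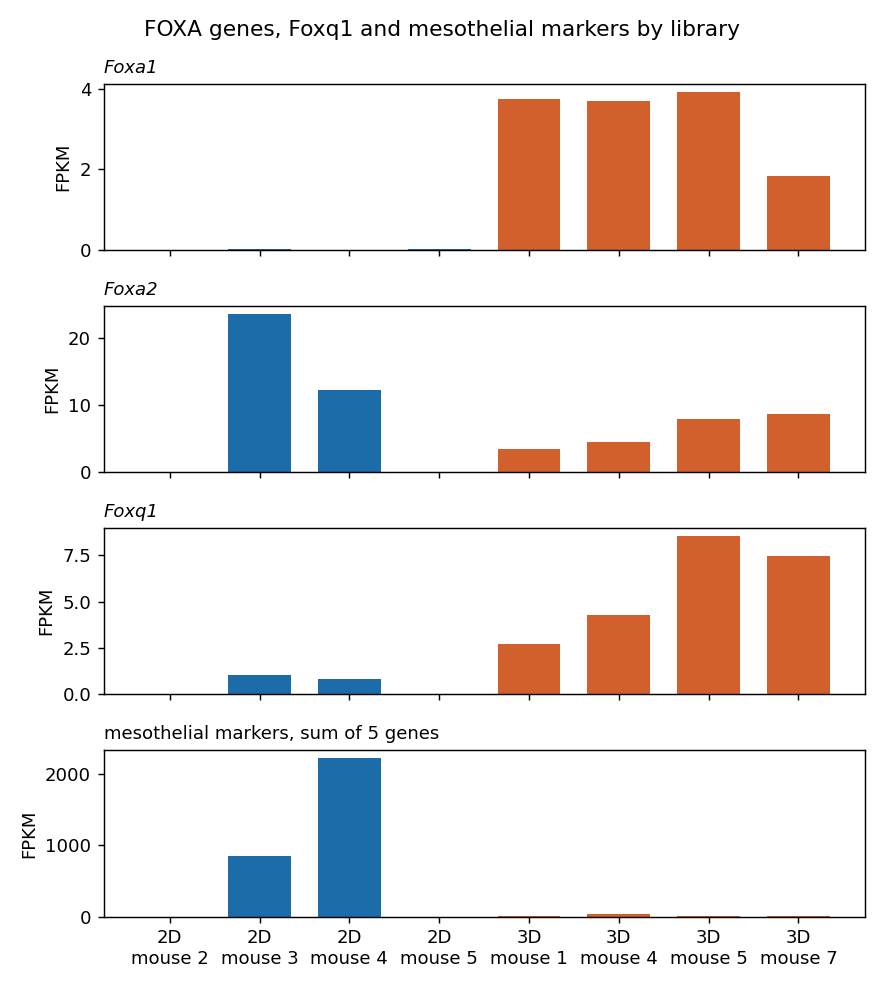
Bars give the FPKM as deposited (linear axes from 0) of Foxa1, Foxa2, Foxq1 and the sum of 5 mesothelial markers (Msln, Upk3b, Upk1b, Wt1 and Lrrn4) in each library, blue for 2D and orange for 3D. In 2D, Foxa2 and the mesothelial markers were high in mice 3 and 4 only. Foxq1 was above 0 in the same 2D libraries only, below every 3D library, and Foxa1 was at or near 0 in all 4 of 2D.

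Foxq1, on the plus strand at chr13:31556134-31560976, was higher in every 3D library. It was listed at 0 in the 2D libraries of mice 2 and 5, at 1.03 FPKM in mouse 3 and at 0.840 in mouse 4. In 3D it was at 2.72 FPKM in mouse 1, 4.29 in mouse 4, 8.55 in mouse 5 and 7.46 in mouse 7. The 2D libraries with a value above 0 were again those of mice 3 and 4, and the lowest 3D library, of mouse 1, lay above both. The difference was 2.04 (SE 0.42, limma's adjusted p = 0.00586), and 3.86 with a pseudocount of 0.1.

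Genes that are known to work beside FOXA factors in epithelia were mostly higher in 3D. Of 12 listed partner factors, 11 were tested, 8 were higher, 0 were lower and 3 did not pass, with a median difference of 3.28. Over all genes tested, 21.2% were higher and 20.3% lower. Ehf and Elf3, ETS factors of epithelia, were at 0 in all 2D libraries and at 83.1 to 122 and 60.0 to 116 FPKM in 3D. Grhl2, a grainyhead factor of epithelial junctions, was at most 0.0121 FPKM in 2D and at 23.7 to 35.7 in 3D. Gata3, a factor of glandular epithelia, was at 0.517 to 1.1001 and 21.5 to 28.9. Hnf4a was at 0 in all 8 libraries. Of the 12 epithelial markers, 11 were higher and Krt18 did not pass. Among the 11 were Epcam (difference 8.37, SE 0.19), Cldn4 (8.23, SE 0.23), Cdh1 (8.06, SE 0.20), Cldn3 (7.57, SE 0.12) and Cldn7 (6.796, SE 0.11). The call of Krt8 was lost without the 2D library of mouse 2 or 5 and without any one 3D library. That of Krt19 was lost without the 2D library of mouse 2 or 5 or the 3D library of mouse 5 or 7. The 8 partner factors thus rose beside epithelial markers in the same libraries.

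Foxc2 was lower in every 3D library and its paralog Foxc1 was not. Foxc2, on the plus strand at chr8:121116171-121118895, was at 13.03 FPKM in mouse 2, 2.33 in mouse 3, 3.47 in mouse 4 and 13.9 in mouse 5 of 2D. In 3D it was listed at 0 in mice 4, 5 and 7 and at 0.0520 in mouse 1, about 2.07 fragments, where 3 fragments would read at most 0.0757 FPKM. Within 2D, mice 2 and 5 were the high libraries and mice 3 and 4 the low ones, the reverse of Foxa2. The difference was -2.93 (SE 0.48, limma's adjusted p = 0.00215), and -5.93 with a pseudocount of 0.1.

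Foxc1, on the plus strand at chr13:31806633-31812476, was at 6.76, 3.48, 3.53 and 8.53 FPKM in mice 2, 3, 4 and 5 of 2D. In 3D it was at 17.3 FPKM in mouse 1, 6.78 in mouse 4, 3.85 in mouse 5 and 4.48 in mouse 7. Mouse 1 of 3D was the highest of all 8 libraries, and the other 3D libraries lay within the range of the 2D libraries. The difference was 0.19 (SE 0.49, limma's adjusted p = 0.767), with a 95% interval from -0.94 to 1.33, and -0.25 when mouse 1 of 3D was left out. Foxc1 made up 34.1% to 59.9% of the summed FPKM of Foxc1 and Foxc2 in 2D and 99.7% to 100% in 3D.

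Both FOXF genes were lower in 3D. Foxf2, on the plus strand at chr13:31625816-31631403, was at 3.53, 4.35, 3.92 and 0.964 FPKM in mice 2, 3, 4 and 5 of 2D and was listed at 0 in all 4 3D libraries, where 3 fragments would read at most 0.0873 FPKM. Its lowest 2D library rested on about 37.5 fragments. The difference was -2.13 (SE 0.28, limma's adjusted p = 6.6e-04), and -5.08 with a pseudocount of 0.1.

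Foxf1, on the plus strand at chr8:121084386-121088144, passed by less. It was at 3.74 FPKM in mouse 2, 4.68 in mouse 3, 0.912 in mouse 4 and 0.261 in mouse 5 of 2D, and at 0.118, 0.167, 0.148 and 0.165 in mice 1, 4, 5 and 7 of 3D. The 3D libraries lay close together at about 4.16 to 6.25 fragments, just under the 10.3 fragments of the lowest 2D library. The difference was -1.44 (SE 0.47, limma's adjusted p = 0.0414). It did not pass on the values as deposited (limma's adjusted p = 0.0528), nor without the 2D library of mouse 2 (-1.18, adjusted p = 0.0912) or of mouse 3 (-1.13, adjusted p = 0.0821), nor without any one of the 4 3D libraries (-1.40 to -1.45, adjusted p = 0.0802 to 0.0847), in a range from 0.0111 to 0.243 over the alternatives. Foxf1 made up 18.9% to 51.9% of the summed FPKM of Foxf1 and Foxf2 in 2D and all of it in 3D.

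The Hedgehog pathway is known to act on FOXF genes in mesenchyme. Of its 15 listed genes, 14 were tested, 5 were lower, 1 was higher and 8 did not pass, with a median difference of -0.51, beside 20.3% lower and 21.2% higher among all genes. Disp1, which releases the ligand, was at 14.8 to 26.8 FPKM in 2D and 1.37 to 2.76 in 3D, and Gli3, a transcription factor of the pathway, was at 6.97 to 8.92 and 0.174 to 0.572. The co-receptor Boc differed by -1.34 (SE 0.26) and Gli2 by -0.81 (SE 0.05). The receptor Ptch1 was higher in 3D, at 6.36 to 8.71 FPKM against 1.87 to 4.84 (difference 0.85, SE 0.27, limma's adjusted p = 0.0363), a call lost without the 2D library of mouse 3 or 4, without any one 3D library and with only mice 2 and 5 in 2D. The ligand Shh was at 0 in all 8 libraries, Ihh and Dhh at no more than 0.117 and 0.212 FPKM, and the target Gli1 at no more than 0.167.

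Stromal transcription factors were lower in 3D beside Foxc2 and the FOXF genes. Of 12 tested, 9 were lower, 0 were higher and 3 did not pass, with a median difference of -2.62. Over all genes tested, 20.3% were lower and 21.2% higher. Prrx1 was at 25.2 to 81.0 FPKM in 2D and 0 to 2.04 in 3D. Zeb1 was at 11.9 to 24.7 and 0 to 0.0815, Zeb2 at 18.2 to 21.8 and 0 to 0.0300, Twist2 at 6.63 to 21.4 and 0, and Snai2 at 12.2 to 26.3 and 0.0730 to 1.78. Of the 10 stromal markers, 9 were lower, by -10.17 (SE 0.30) for Col1a2, -9.07 (SE 0.49) for Postn, -8.79 (SE 0.28) for Col1a1, -8.17 (SE 0.19) for Col3a1 and -7.65 (SE 0.28) for Fbn1. The part of stromal cell content in the members' values was not tested.

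Members that are neighbours on a chromosome did not all move alike. On chromosome 13, Foxq1, Foxf2 and Foxc1 lie in this order on the plus strand, with starts 69.7 kb and 181 kb apart. Foxq1 rose, Foxf2 fell to 0 in every 3D library, and Foxc1 overlapped between the cultures. Gmds, which encodes an enzyme of fucose synthesis 7.10 kb beyond Foxc1, rose from 18.8 ± 4.95 to 41.7 ± 10.6 FPKM (SD, n = 4), a difference of 1.35 (SE 0.23, limma's adjusted p = 0.00248). The noncoding gene 1700018A04Rik between Foxq1 and Foxf2 was at 0 in 2D and between 0 and 0.673 FPKM in 3D (limma's adjusted p = 0.261).

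On chromosome 8, Foxf1, Foxc2 and Foxl1 start within 43.6 kb, and all 3 were lower in 3D. Foxl1, a mesenchymal forkhead factor 9.04 kb from Foxc2, was at 1.39, 0.222, 0.357 and 1.49 FPKM in mice 2, 3, 4 and 5 of 2D and at 0 in 3 of the 3D libraries (difference -0.94, SE 0.30, limma's adjusted p = 0.0378). This call was lost without the 2D library of mouse 2 or 5 and without any one 3D library, with differences from -0.76 to -0.94 (limma's adjusted p = 0.0730 to 0.0822). Mthfsd, between Foxf1 and Foxc2, was at 11.7 ± 1.51 FPKM in 2D and 15.9 ± 2.72 in 3D (SD, n = 4, limma's adjusted p = 0.0777), and it passed without the 3D library of mouse 1 (difference 0.57, limma's adjusted p = 0.00757). Fendrr, the noncoding gene beside Foxf1, was at 0 to 0.308 FPKM in 2D and at 0 in 3D (limma's adjusted p = 0.116), and it passed without the 2D library of mouse 5 (limma's adjusted p = 0.0379).

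**Figure D4:**
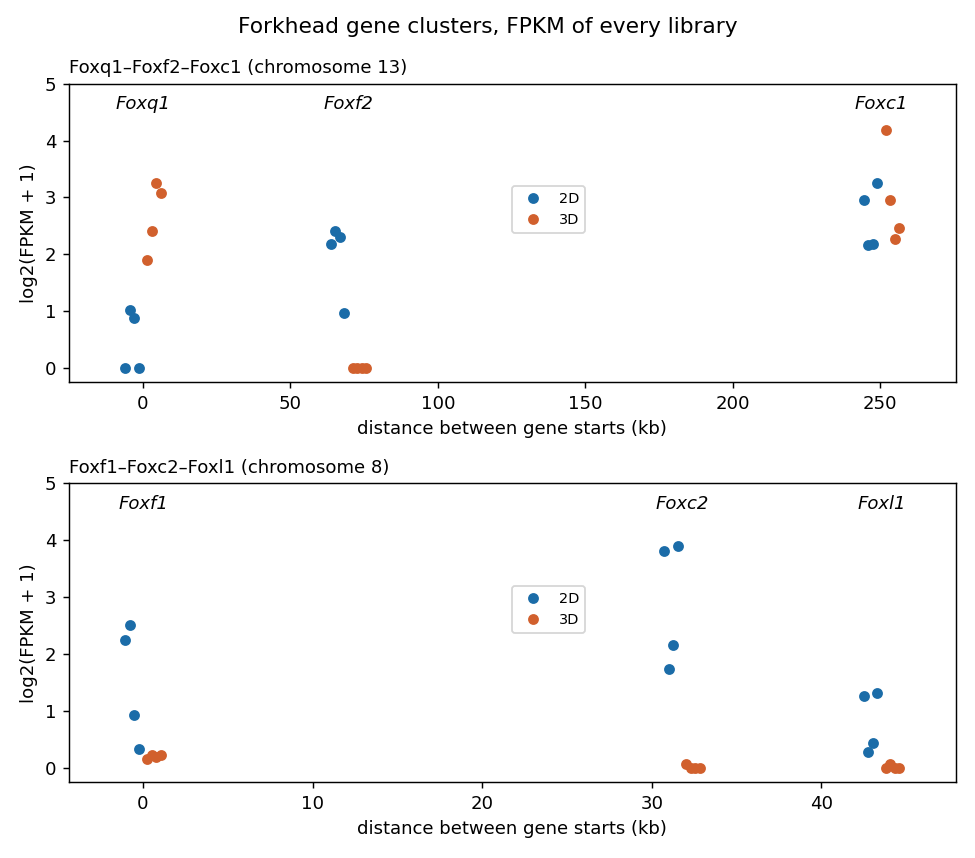
Levels as log2(FPKM + 1) of each library (blue 2D, orange 3D) for the forkhead genes of 2 chromosomal clusters, placed by the distance in kb between gene starts. In the upper cluster Foxq1 was higher in 3D, Foxf2 was at 0 there and Foxc1 overlapped, whereas all 3 genes of the lower cluster were lower in 3D.

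Of the other members' neighbours, Mipol1 beside Foxa1 was higher in 3D, at 11.1 ± 2.03 against 5.604 ± 1.44 FPKM (SD, n = 4; difference 0.75, SE 0.21, limma's adjusted p = 0.0212), a call lost without the 3D library of mouse 4 (adjusted p = 0.0567) or of mouse 5 (adjusted p = 0.0595). Eif4e3 beside Foxp1 was lower, at 0.0268 to 0.199 FPKM against 1.48 to 4.58 (difference -1.93, SE 0.33, adjusted p = 0.00244). 4921518K17Rik, Sstr4, Btf3 and Nrip2 did not pass with all libraries, and A530006G24Rik, 2310005E17Rik, 4930401O12Rik and Gm765 were at 0 in all 8 libraries.

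Promoters are shown for Foxa1, which rose from near 0, and for Foxf2 and Foxc1, cluster neighbours of which one fell and the other did not. Each sequence is the RefSeq entry of GRCm38.p6 from 250 to 15 bases before the start of the RefSeq transcript, which is 236 bases, 5′ to 3′ on the strand of the gene. RefSeq starts can differ from the GENCODE spans given above, and the Foxa1 sequence lies inside the GENCODE span, in an intron of a transcript that starts farther upstream. RefSeq entries were found for 6 of the 10 members. The capitals mark matches on either strand to the CCAAT box (CCAAT), the GC box (GGGCGG), the TATA box (TATAAA), an E-box (CACCTG) and a forkhead motif (TGTTTAC), and no matches overlap in these sequences.
Foxa1 (chr12:57546126-57546361, minus strand): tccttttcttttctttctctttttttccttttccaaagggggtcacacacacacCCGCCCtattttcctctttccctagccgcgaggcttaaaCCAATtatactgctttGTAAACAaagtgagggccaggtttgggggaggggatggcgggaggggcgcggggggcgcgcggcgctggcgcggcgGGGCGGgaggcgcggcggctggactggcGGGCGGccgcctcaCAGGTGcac
Foxf2 (chr13:31625566-31625801, plus strand): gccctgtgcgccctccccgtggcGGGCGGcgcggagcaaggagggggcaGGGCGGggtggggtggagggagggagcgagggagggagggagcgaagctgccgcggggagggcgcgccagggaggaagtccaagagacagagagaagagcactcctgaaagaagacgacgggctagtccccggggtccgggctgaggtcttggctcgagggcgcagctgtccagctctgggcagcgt
Foxc1 (chr13:31806396-31806631, plus strand): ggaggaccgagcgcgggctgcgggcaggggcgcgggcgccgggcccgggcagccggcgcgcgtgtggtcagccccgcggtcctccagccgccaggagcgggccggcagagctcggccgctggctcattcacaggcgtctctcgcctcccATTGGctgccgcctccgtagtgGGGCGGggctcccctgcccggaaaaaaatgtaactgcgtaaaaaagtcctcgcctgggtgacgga
The Foxa1 sequence held 1 CCAAT box, 3 GC boxes, 1 E-box and 1 forkhead motif. Foxf2 held 2 GC boxes, and Foxc1 held 1 CCAAT box and 1 GC box. Among 32851 mouse promoter entries cut in the same way, 32.7% held the CCAAT box, 30.8% the GC box, 11.9% the TATA box, 16.3% the E-box and 3.00% the forkhead motif. The CG dinucleotide occurred 20 times in Foxa1, 20 times in Foxf2 and 29 times in Foxc1, beside a median of 5 over all entries. Over all 10 RefSeq entries of the 6 members the count ran from 3 in one of the Foxp1 entries to 31 in another. These are matches of letters and no measured binding.

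Foxm1 was lower in every 3D library. It lies on the plus strand at chr6:128362967-128376146. It was at 12.5 FPKM in mouse 2, 5.91 in mouse 3, 3.46 in mouse 4 and 17.3 in mouse 5 of 2D, and at 2.05, 2.15, 1.32 and 0.570 in mice 1, 4, 5 and 7 of 3D. As with Foxc2, mice 2 and 5 were the high 2D libraries, and the lowest 2D value of 3.46 stood above the highest 3D value of 2.15. The difference was -2.09 (SE 0.44, limma's adjusted p = 0.00643). Within animals it was -0.70 in mouse 4 and -3.05 in mouse 5.

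Most of its listed partners and mitotic targets were lower as well. Of 29 listed genes, 21 were lower in 3D, 0 were higher and 8 did not pass, with a median difference of -1.56. Over all genes tested, 20.3% were lower and 21.2% higher. Kif20a, a kinesin of cytokinesis, was at 12.8 to 41.7 FPKM in 2D and 1.20 to 5.25 in 3D. Tpx2, a spindle assembly factor, was at 11.8 to 35.0 and 1.11 to 5.54. The mitotic kinase Aurka differed by -2.24 (SE 0.46), Birc5 (survivin) by -2.18 (SE 0.49) and cyclin B1 (Ccnb1) by -2.11 (SE 0.52). The median of the 29 genes was 2.94 to 4.07 in the 2D libraries and 1.57 to 2.74 in the 3D libraries on the log2(FPKM + 1) scale, and within 2D it was highest in mice 5 and 2, as Foxm1 was. With only mice 4 and 5, 0 of the 29 passed limma's adjusted p, while 1788 of all genes were higher and 1432 lower there. Rhno1, a DNA damage response gene that starts 0.056 kb from Foxm1 on the other strand, was also lower, at 7.29 ± 0.41 against 12.1 ± 2.05 FPKM (SD, n = 4; difference -0.75, SE 0.13, limma's adjusted p = 0.00265).

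**Figure D5:**
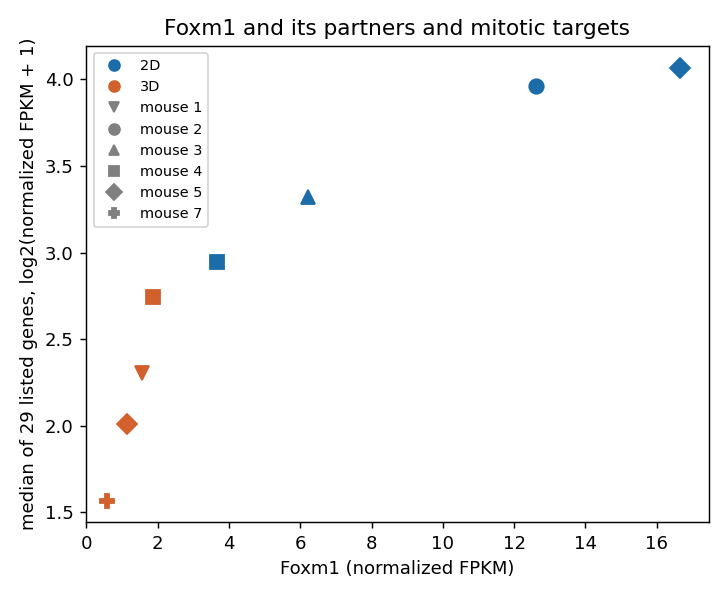
Foxm1 (x axis, normalized FPKM) and the median of its 29 listed partners and mitotic targets (y axis, log2 of normalized FPKM + 1) in each library, with colours for culture and symbols for mouse. The 3D libraries had medians from 1.57 to 2.74 and the 2D libraries from 2.94 to 4.07, with mice 2 and 5 of 2D farthest up on both axes.

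Foxp1 had the highest mean of the members in 2D and was lower in every 3D library. It lies on the minus strand at chr6:98925338-99522721. It was at 31.0, 24.3, 18.4 and 33.5 FPKM in mice 2, 3, 4 and 5 of 2D, a mean of 26.8 ± 6.83 (SD, n = 4). In 3D it was at 7.18, 5.52, 5.20 and 4.91 FPKM in mice 1, 4, 5 and 7, a mean of 5.70 ± 1.01 (SD, n = 4). No 3D library came near a 2D library, and the fewest fragments of the gene, about 543, were in mouse 5 of 3D. The difference was -2.05 (SE 0.18, limma's adjusted p = 9.2e-05), or 4.15-fold lower on this scale.

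Foxd1, on the plus strand at chr13:98354242-98359305, was listed at 0 in all 8 libraries. At its length, 3 fragments would read at most 0.0360 FPKM in 2D and 0.0407 in 3D. A level below that could have been missed at this depth, and these limits cover counting error only.

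The order of the members differed between the cultures. In 2D, Foxp1 stood above the next gene, Foxm1, in all 4 libraries. Foxm1, Foxa2, Foxc2, Foxc1, Foxf2 and Foxf1 followed by their means. Among these, each exceeded the next in 2 of 4 libraries only, so neighbours among them did not differ beyond their spread. Foxf1 stood above the gene after it, Foxq1, in all 4 libraries. In 3D, Foxc1, Foxa2, Foxq1 and Foxp1 led with means of 5.70 to 8.09 FPKM, and among these each exceeded the next in 2 or 3 of 4 libraries. Foxp1, Foxa1, Foxm1, Foxf1 and Foxc2 kept this order in all 4 libraries. The 10 members summed to 46.8 to 74.5 FPKM in 2D and 27.0 to 36.6 in 3D, of which Foxp1 made up 34.9% to 45.0% and 16.8% to 20.4%.

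The genes whose pattern within the cultures was most like that of a member were found among the 12577 genes whose mean reached 1 FPKM, by Pearson's r over the 8 libraries of the deviations from the culture means. These are descriptions over 8 libraries of 6 mice, and for Foxa2, Foxc1, Foxc2, Foxm1, Foxp1 and Foxq1 the 2D values set mice 2 and 5 against mice 3 and 4. Foxc2, Foxf1 and Foxf2 were at or near 0 throughout 3D, as was Foxa1 throughout 2D. The r values of these genes thus rest mainly on the libraries of the other culture. For Foxc2 the nearest included Foxs1 (r = 0.999) and Npy (r = 0.997). Foxs1, a further forkhead gene, was at 28.4, 9.37, 12.03 and 29.8 FPKM in mice 2, 3, 4 and 5 of 2D and at 0 in all 3D libraries. For Foxm1 they were Hist1h1e (r = 0.998), Fbxo5 (r = 0.997) and Gsg2 (r = 0.991), which encode a linker histone, an inhibitor of the anaphase-promoting complex and the kinase haspin. For Foxa2 they were Usp32 (r = 0.993), Lpar2 (r = 0.992) and Sema3c (r = 0.991), and for Foxq1 R74862 (r = 0.980), Gnai1 (r = 0.976) and Ugt1a7c (r = 0.974). Sema3c, a secreted semaphorin, was at 51.8 and 33.5 FPKM in mice 3 and 4 of 2D and at 1.53 and 0.859 in mice 2 and 5.

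For Foxa1 the nearest genes were Rap1b (r = 0.984), Bst1 (r = 0.978) and Sowahb (r = 0.966). Bst1, an ectoenzyme, stood at 0.802 FPKM in mouse 7 of 3D, where Foxa1 was also lowest, and at 9.14 to 11.02 in the other 3D libraries. For Foxc1 they were Prdx4 (r = 0.992), Acap3 (r = 0.991) and Efhd2 (r = 0.988), and for Foxp1 Rhobtb2 (r = 0.990), Rfc4 (r = 0.985) and Mllt3 (r = 0.981). For Foxf1 they were Scarna2 (r = 0.978), Adamts14 (r = 0.958) and Usp43 (r = 0.953), and for Foxf2 Mark4 (r = 0.987), Pear1 (r = 0.950) and Pcdhga10 (r = 0.944). Likeness within cultures did not fix the direction between them, since Mllt3 was at 2.41 to 4.05 FPKM in 2D and 12.8 to 16.3 in 3D while Foxp1 was lower in 3D.

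Among the 34 other forkhead genes, 28 were tested, of which 5 were higher and 9 lower in 3D and 14 did not pass, with a median difference of 0.02. The shares over all genes tested were 21.2% higher and 20.3% lower. Foxj1 rose from 0.0482 to 0.171 FPKM in 2D to 86.7 to 289 in 3D (difference 7.34, SE 0.33). Foxo1 and Foxo3, effectors of insulin signalling, rose by 2.41 (SE 0.21) and 1.16 (SE 0.21), and Foxp4, a relative of Foxp1, by 0.54 (SE 0.12). Besides Foxs1 (difference -4.17, SE 0.34), Foxn2 (-1.10, SE 0.19), Foxl1, Foxn3 (-0.62, SE 0.19) and Foxk2 (-0.57, SE 0.16) were lower. The calls of Foxn3 and Foxk2 were each lost without any one of several libraries, and without the 3D library of mouse 7, 5 rather than 9 genes were lower. Foxd3, Foxd4, Foxe3, Foxi2, Foxi3 and Foxn4 were at 0 in all 8 libraries.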

How the data were processed

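Total RNA of 8 libraries was sequenced by the authors after ribosomal RNA depletion, as paired-end reads of directional libraries. They trimmed the reads and mapped them with TopHat, to mm10 (GRCm38) per the submitters' processing notes, and summarized them with Cufflinks. The deposited FPKM values hold no read counts. The study names a quantile normalization that the deposited values do not include.

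Genes at 0 in every library (5484) were left out, and 18862 were quantile normalized, converted to log2(FPKM + 1) and compared with limma 3.58.1 in R 4.3.3 (intensity trend, no covariates, adjusted p under 0.05). Fragments were estimated from FPKM, the longest transcript length and a depth taken from low-value steps of 875 genes. Of the 110 to 135 low values per library, 69.2% to 82.1% lay within 0.15 of a whole number. Coordinates and 23310 symbols (95.7%) are from GENCODE M21.

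Mice 4 and 5 pair the cultures by label, and their deviations from the culture means correlated at -0.05 and -0.11 over 12577 genes. Within a culture each library is a separate mouse. The model was tested on simulated data. Genes named are the members, other forkhead genes that passed, up to 5 passing genes per list by size of difference, neighbours, and the 3 nearest in pattern. A few genes that meet these criteria are not reported here. Members and lists were chosen with earlier results of these data known.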

Additional observations from a re-analysis of the deposited data

Results flagged for a closer look

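In 17 sets of 4 libraries (a member in a culture), the highest and the lowest library were compared with the range of the set. Chance sets a library apart by this criterion in about 1 in 20 groups of values with a normal spread. The Foxa1 level of 1.84 FPKM in the 3D library of mouse 7 lay below the other 3D libraries, at 3.69 to 3.93 FPKM, by 0.886 of the whole range. The Foxc2 level of 0.0520 FPKM in the 3D library of mouse 1 was the only value above 0 among the 3D libraries and rested on about 2.07 fragments. With the other 3D libraries tied at 0, any value above 0 would be set apart, so the rate above does not apply to this set.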

How the results depend on the processing

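With the replicate block (mouse number), 0 members and 0 genes in all were higher and 0 and 0 lower, beside 2 and 5 members and 4000 and 3823 genes in the whole comparison. The numbers pair only mice 4 and 5, so that 1 residual degree of freedom remains, and the cause of the lost calls beyond that was not tested. With mice 4 and 5 only, 1 member was higher and 1 lower, and 1788 genes were higher and 1432 lower. Without quantile normalization, without the intensity trend, among genes averaging at least 1 FPKM, at a pseudocount of 0.1, after removal of genes under 300 nt and, chosen after seeing the data, with mice 2 and 5 only in 2D, the members higher numbered 2 or 3 and the members lower 4 or 5. Leaving out each library in turn gave 2 higher in each case and 4 to 5 lower, with Foxf1 as the member lost. Over all genes, leaving out each library in turn gave 3393 to 4051 higher and 3204 to 3835 lower. The settings from no quantile normalization to mice 2 and 5 only in 2D gave 3542 to 4279 higher and 3461 to 4206 lower.

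Over the libraries left out in turn, the difference of Foxa2 ran from -0.11 to 1.41 and that of Foxc1 from -0.25 to 0.45. Foxa2 turned negative without mouse 2 (-0.10) or mouse 5 (-0.11) of 2D. The difference of Foxc1 turned negative under the block (-0.24), with mice 4 and 5 only (-0.25), with mice 2 and 5 only in 2D (-0.28) and without the 3D library of mouse 1 (-0.25). Foxc1 passed under none of the alternatives run, and Foxa2 passed with mice 2 and 5 only in 2D (difference 2.67). Of 352 counts over gene lists under the alternatives, 316 were within 1.5 times the count of the whole comparison and 36 were not. Depth limits Foxa1, Foxa2 and Foxq1 in 2D, Foxc2, Foxf1 and Foxf2 in 3D and Foxd1 in both, which rest on few or 0 fragments in some libraries.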

Other observations

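The 3D library of mouse 1 held the highest Foxc1 level of all libraries, 17.3 FPKM, beside 3.48 to 8.53 in the other 7. Esr1 and Cdon, chosen from the lists above after their values were seen, were also highest there among the 3D libraries. Esr1, the estrogen receptor, was at 22.9 FPKM in that library, 0.8291 to 1.37 in the other 3D libraries and 0.386 to 1.597 in 2D. Cdon, a Hedgehog co-receptor, was at 14.6 FPKM in that library and 3.46 to 5.01 in the other 3D libraries, and at 4.54, 12.4, 13.7 and 6.30 in mice 2, 3, 4 and 5 of 2D. Its limma adjusted p was 0.324 with all libraries and 0.0413 without that one (difference -1.09).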
